A study of Mus musculus with 6 samples.

Results

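The cycling CD8 T cells of B16-OVA tumors were cell barcodes that held at least 5 raw UMIs (unique molecular identifiers, each counted as 1 transcript molecule) summed over 6 cell cycle genes, Top2a, Mki67, Birc5, Ccna2, Cdk1 and Ube2c. To count as CD8 T cells, these barcodes also had to hold at least 500 detected genes, at least 1000 UMIs, at most 20% mitochondrial UMIs and at least 3 UMIs of Cd8a and Cd8b1 together. Barcodes with 3 or more UMIs of Ccr7, a receptor of naive and lymph node T cells, were left out, as were those with 50 or more UMIs of the melanoma genes Pmel, Mlana, Tyrp1 and Dct or 10 or more of the macrophage genes Lyz2, C1qa, C1qb and Csf1r. The rule chose 298 cells, 88 in the Pdcd1fl/fl library and 210 in the Pdcd1 cKO library. They came from 553 CD8 cells under the remaining limits, 1017 tumor barcodes past the quality limits and 11125 such barcodes in the whole series of 6 libraries. The 255 CD8 cells below 5 UMIs, 65 and 190, are called other CD8 cells.

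The study asked what PD-1, the inhibitory receptor encoded by Pdcd1, does in CD8 T cells of the thymus, the spleen and the tumor. Pdcd1 cKO mice carried 2 loxP-flanked Pdcd1 alleles and the E8I CD8-Cre transgene, which drives Cre in the CD8 lineage, and Pdcd1fl/fl controls carried the same alleles without Cre. All mice were adults older than 8 weeks on the C57BL/6 background. Those of the tumor libraries received B16-OVA melanoma cells (a mouse line that makes the antigen ovalbumin) under the skin and were sampled on day 12 with no other treatment, while the thymus and spleen libraries are labelled baseline, with no tumor stated. CD8 cells were taken from digested tumors with microbeads, those of 3 mice were pooled per genotype, and 1 PIPseq single-cell library was made from each pool.

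Each genotype thus had 1 tumor library, so no value has a replicate check and no test between genotypes was possible. Intervals are exact 95% intervals and cover counting error only. Differences between mice, between pools and between library preparations cannot be told apart from the genotype.

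A T cell that meets its antigen enters the cell cycle through D cyclins and their kinases, copies its DNA in S phase, and in G2 and M phase condenses its chromosomes, builds a spindle and divides. The transcripts of these steps come in waves, with replication genes switched on by E2F factors before those of mitosis, which are controlled through the MuvB and FOXM1 complexes. In tumors, dividing CD8 cells are a source of the effector and exhausted cells that carry granzymes and inhibitory receptors.

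The cycling cells held a median of 14862.5 UMIs (range 6523 to 44693) in the Pdcd1fl/fl library and 11298 (5887 to 47555) in the Pdcd1 cKO library. The other CD8 cells held medians of 8262 (range 6394 to 24849) and 7726.5 (5849 to 58252). By median, cycling cells were thus the deeper ones, and because the rule counts raw UMIs, depth was part of how they were chosen. Median detected genes were 2655 and 2250.5 in cycling cells against 1745 and 1749.5 in other CD8 cells. Mitochondrial shares were low in all 4 groups, with medians of 1.92% and 1.59% in cycling cells. Summed over cells, the cycling groups held 1498494 and 2747508 UMIs, and levels are given as CPM, UMIs per 1e6 of these sums.

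By the rule, 57.5% (49.3% to 65.5%) of the Pdcd1fl/fl CD8 cells and 52.5% (47.5% to 57.5%) of the Pdcd1 cKO CD8 cells were cycling. With each cell randomly reduced to 3000 UMIs and the threshold lowered to 2, the shares were 40.5% (32.7% to 48.7%) and 48.0% (43.0% to 53.0%). The order of the libraries thus turned at equal depth, and the intervals overlapped both ways. Reduced to 5000 UMIs with the threshold kept at 5, the shares were 27.5% and 30.8%. A difference in the share of cycling cells was not detectable at this depth. The limit on Ccr7 mattered more in one library than in the other, since 41 Pdcd1fl/fl and 16 Pdcd1 cKO barcodes reached 5 cell cycle UMIs but were left out for Ccr7.

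Pdcd1 stood at 233 CPM (349 UMIs) in Pdcd1fl/fl cycling cells and at 190.4 CPM (523 UMIs) in Pdcd1 cKO cycling cells, and at 161 and 111 CPM in other CD8 cells. The gene (ENSMUSG00000026285) lies at chr1:93966027-93980312 on the minus strand of GRCm39. Its log2 ratio of Pdcd1 cKO over Pdcd1fl/fl was −0.29 (−0.49 to −0.09) in cycling cells and −0.54 (−0.90 to −0.18) in other CD8 cells. PIPseq counts the 3′ end of a transcript and the sources do not state which exons were flanked, so these counts check neither the deletion nor the labels. Within each library the cycling cells held more Pdcd1 than the other CD8 cells, by a log2 of 0.53 (0.21 to 0.87) and 0.78 (0.54 to 1.03). With every cell reduced to 5000 UMIs, Pdcd1 was found in 48.9% and 57.1% of cycling cells. In melanoma barcodes without any CD8 UMI, which should lack the gene, the shares at the same depth were 0% and 4.76%.

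Those melanoma barcodes, 75 and 21 in number with medians of 24060 and 31089 UMIs before reduction, were the comparison for free RNA. They were chosen for holding no CD8 UMI, so their shares can understate free T cell RNA. Unless stated otherwise, shares of cells with a gene below are given at 5000 UMIs per cell, beside the shares in the Pdcd1fl/fl and Pdcd1 cKO melanoma barcodes.

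The chosen cells carried the CD8 T cell markers that the label calls for. Cd8b1, which encodes the CD8 beta chain and was in the rule, stood at 469 and 627 CPM and was found in 100% of the cycling cells of both libraries before reduction. Cd8a, also in the rule, stood at 359.7 and 361 CPM. Among genes outside the rule, Cd3e of the T cell receptor complex stood at 327 and 385 CPM. It was found in 78.4% and 85.2% of cycling cells, against 6.67% and 4.76% of melanoma barcodes. Cd3d and Cd3g, of the same complex, stood at 1183 and 1438 and at 775 and 1045 CPM, and Trac, the constant part of the receptor alpha chain, at 319 and 566 CPM. Thy1, a surface protein of T cells, stood at 663 and 688 CPM and Lck, the kinase bound to CD8, at 217 and 293 CPM. Male mice were represented, with Ddx3y of the Y chromosome at 333 and 367 CPM, and Xist, the transcript of the silent X chromosome of females, was at 0 UMIs in the cycling cells of both libraries.

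Markers of other cells were mostly low. The CD4 and regulatory T cell list of 4 genes summed to 5.34 and 5.10 CPM, with Cd4 itself at 2.00 and 1.09 CPM, and the 2 gamma delta T cell genes in the files were at 0 UMIs. Of the 6 natural killer cell genes, Klre1, which CD8 effectors share, made up 52.7 and 57.1 of the summed 53.4 and 59.0 CPM, and Ncr1 was at 0 in both libraries. The 8 B cell genes summed to 44.7 and 95 CPM, with Igkc highest at 23.4 and 55.3. The 11 macrophage genes summed to 44.0 and 64.8 CPM, with Apoe at 19 and 16 CPM, and the 10 dendritic cell genes to 101 and 183 CPM, led by Cd74 at 58.7 and 112, with Xcr1, Clec9a, Cd209a and Siglech at 0. The 5 neutrophil genes summed to 2.00 and 2.18 CPM and the 4 red cell genes to 1.33 and 0 CPM.

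Melanoma transcripts were widespread in the cycling cells. The 9 melanoma genes summed to 262 and 170.3 CPM in cycling cells, led by Dct, a pigment enzyme, at 92.8 and 48.4 CPM. In other CD8 cells the list stood no lower, at 270 and 210 CPM. At least 3 such UMIs were present in 76.1% and 37.1% of cycling cells against 44.6% and 25.8% of other CD8 cells, before any reduction of depth. For the dendritic cell genes these shares were 23.9% and 43.8% against 7.69% and 27.9%. Their summed levels were 101 and 183 CPM in cycling cells and 100 and 220 CPM in other CD8 cells. The rule itself allowed fewer than 50 UMIs of the 4 main melanoma genes, and the part of these transcripts in the results below was not tested.

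The 7 fibroblast and endothelial genes summed to 1109.8 and 118 CPM, a difference between libraries that came from 1 barcode. This Pdcd1fl/fl member held 17066 UMIs, of which 1489 (8.72%) were stromal, with 539 of Col1a1, 297 of Col3a1 and 158 of Sparc, a gene outside that list. It had the minimum of 3 CD8 UMIs, none of Cd3e or Gzmb, and 11 UMIs of the rule, while the next highest member held 13 stromal UMIs. It met the rule and was kept, and results that rest on it are given with and without it. No barcode was shared between the tumor libraries or between a tumor library and any other. Scrublet called 0 of 456 and 2 of 561 tumor barcodes doublets. Both were other CD8 cells of the Pdcd1 cKO library, none was a cycling cell, and none was removed.

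The rule was met mainly through 2 of its genes. Ube2c, the enzyme that loads ubiquitin for the anaphase-promoting complex, stood at 418 and 456 CPM in cycling cells against 25.5 and 42.5 in other CD8 cells. Birc5 (survivin, a subunit of the chromosomal passenger complex) stood at 273 and 368 CPM against 75.0 and 65.8. Together they held 72.5% of the rule's UMIs in Pdcd1fl/fl cycling cells and 79.8% in Pdcd1 cKO cycling cells, and 65 (73.9%) and 171 (81.4%) of the members would have been chosen by these genes alone. Ccna2, the cyclin of S and G2 phase, stood at 81.4 and 91.0 CPM, and its partner kinase Cdk1 at 94.8 and 63.3. Top2a, the topoisomerase that untangles sister chromosomes, stood at 48.7 and 32.8 CPM and Mki67, whose protein Ki-67 coats mitotic chromosomes, at 36.7 and 21.5.

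Ki-67, the usual stain for dividing cells, was thus a sparse transcript here. Mki67 was found in 19.3% and 11.0% of cycling cells and 5.33% and 4.76% of melanoma barcodes, which also divide and so are no blank for cell cycle genes. Birc5 was found in 78.4% and 86.7% of cycling cells, 27.7% and 26.3% of other CD8 cells and 34.7% and 23.8% of melanoma barcodes. Without Mki67 in the sum, 87 and 208 members would remain, and without Top2a 86 and 203. Without Birc5, 75 and 157 would remain, and without Ube2c 74 and 159. All 6 genes were found together in 7 cells of each library, and the most common number was 4 genes in the Pdcd1fl/fl library (35 cells, 39.8%) and 3 in the Pdcd1 cKO library (74 cells, 35.2%).

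**Figure D1:**
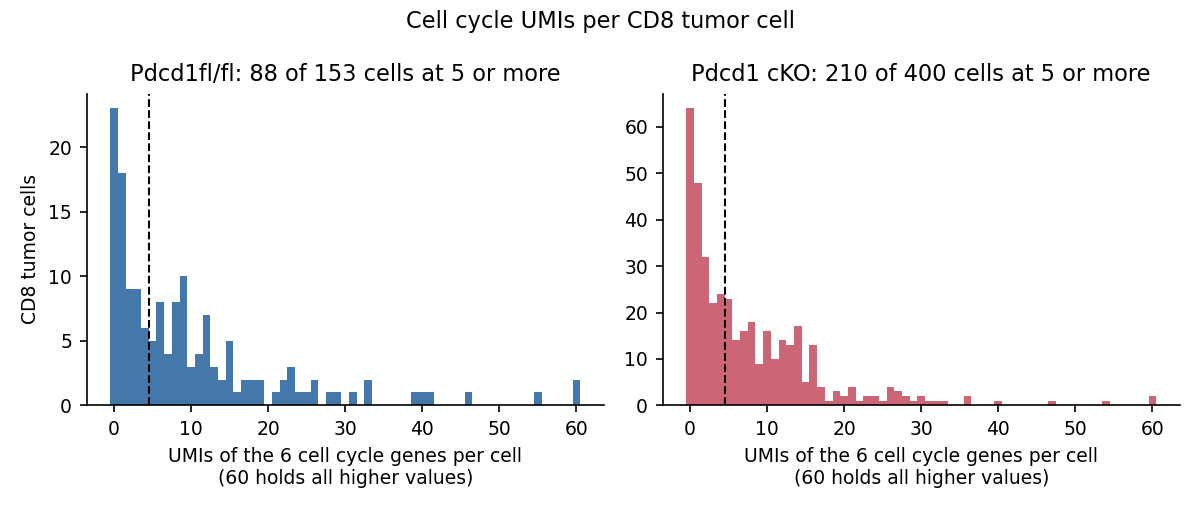
Number of CD8 cells (vertical axis) by UMIs summed over the 6 cell cycle genes of the rule (horizontal axis), for each tumor library, with cells of 60 or more in the last bin and a dashed line at the threshold of 5. The counts fall off without a gap at the threshold, with cycling medians of 12 and 11 UMIs and maxima of 74 and 67.

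The threshold of 5 cut through a continuous range. The 13 and 37 cells with 5 or 6 rule UMIs held 1036 and 1117 CPM of a list of 39 G2/M genes that shares no gene with the rule. The 15 and 46 cells just below it, with 3 or 4 UMIs, held 963 and 917 CPM. A list of 33 S phase genes, also apart from the rule, stood at 2318 and 1699 CPM just inside and at 1561 and 1849 CPM just outside. Cells with 20 or more rule UMIs held 1808 and 1984 CPM of the G2/M list and 1338 and 1226 CPM of the S list, and cells with none held 442 and 568, and 693 and 962. The deepest of all CD8 cells was a Pdcd1 cKO cell with 0 rule UMIs. It held 58252 UMIs, with 122 of the G2/M list and 92 of the S list, and weighs on the Pdcd1 cKO values of cells with none. Other CD8 cells close to the threshold thus held much of the S and G2/M RNA of the members beside them.

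Because the rule used values of the same cells, the contrast between cycling and other CD8 cells is a description. Among genes with at least 50 UMIs in both groups together, 189 of 3066 (6.16%) were at least 2-fold higher in Pdcd1fl/fl cycling cells and 28 (0.913%) at least 2-fold lower. In the Pdcd1 cKO library 166 of 5046 (3.29%) were higher and 135 (2.68%) lower. Of the genes higher, 37 were shared between libraries, 19.6% and 22.3% of the lists, and of those lower 2 were shared, 7.14% and 1.48%.

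Single cells decided many of these calls. More than 50% of a gene's UMIs lay in 1 cell for 25 of the 189 and 13 of the 28 in the Pdcd1fl/fl library, and for 47 of the 166 and 99 of the 135 in the Pdcd1 cKO library. With each gene's highest cell left out of each group, 187 of 2737 and 104 of 4535 tested genes were higher and 9 and 13 lower. Of the 187 and 104 genes, 136 and 89 were also called with all cells. Of the higher ones 37 were shared, 19.8% and 35.6%, while 0 lower ones were shared. Of these 37 genes 26 were in the rule or in the cell cycle lists described below, against 95 of 2729 genes tested in both libraries, and 6 of the 26 were the genes of the rule, which the choice of cells made higher. Without the stromal barcode, 172 genes were higher in the Pdcd1fl/fl library.

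Scaling moved the Pdcd1fl/fl contrast. The median log2 ratio of all tested genes was 0.20 by total UMIs, and 0.09 or 0.08 when mitochondrial, ribosomal protein and Malat1 UMIs were left out of the total or when median of ratios scaling was used. The counts then changed to 138 higher and 41 lower, and to 135 and 41. In the Pdcd1 cKO library the median was 0.06, and the counts were 147 and 146, and 160 and 141. List medians below are therefore given relative to the median of all genes of the same contrast. Counts of list genes at least 2-fold higher in cycling cells are to be read against the shares of all genes. These were 6.16% in the Pdcd1fl/fl library and 3.29% in the Pdcd1 cKO library.

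Outside the 6 genes of the rule, mitotic cyclins and kinases had many calls. Of 23 listed, 7 of 8 tested in the Pdcd1fl/fl library and 7 of 12 in the Pdcd1 cKO library were at least 2-fold higher, with medians of 1.12 and 1.17 above that of all genes. Their summed level was 1062 and 1089 CPM in cycling cells and 470.5 and 626 CPM in other CD8 cells. Ccnb1, the cyclin that starts mitosis with Cdk1, stood at 40.0 and 44.8 CPM in cycling cells and 4.78 and 10.5 in other CD8 cells, a log2 ratio of 3.06 (1.45 to 5.38) and 2.09 (1.37 to 2.90). Ccnb2, its close relative, stood at 145 and 147 CPM against 36.7 and 39.6, a log2 ratio of 1.98 (1.36 to 2.67) and 1.89 (1.52 to 2.29). Cdc25b, the phosphatase that frees Cdk1 from inhibition, had the highest ratio of the list in both libraries, at 40.7 and 31.7 CPM against 4.78 and 6.40. Cks1b and Cks2, small subunits of cyclin-dependent kinases, stood at 324 and 321 and at 92.1 and 104 CPM. Of the chromosomal passenger complex that holds survivin, the kinase Aurkb stood at 44.7 and 41.5 CPM against 17.5 and 10.5 and the subunit Cdca8 at 107 and 111 against 41.5 and 42.5.

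One member of that list went the other way in both libraries. Lin54, the DNA-binding subunit of the MuvB complex, stood at 89.4 and 118 CPM in cycling cells and 121 and 239 in other CD8 cells, a log2 ratio of −0.44 (−0.86 to −0.01) and −1.02 (−1.23 to −0.80). In the Pdcd1 cKO library 33.7% of the UMIs of other CD8 cells lay in 1 cell.

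Spindle genes stood at least as far apart as the mitotic kinases. Of 34 listed, 6 of 8 and 11 of 16 tested were at least 2-fold higher, with medians of 1.38 and 1.25 above that of all genes. The list summed to 4356 and 4649 CPM in cycling cells and 1576 and 1948 CPM in other CD8 cells. Tubb5, a beta tubulin of dividing cells, stood at 1116 and 1169 CPM against 338 and 479, a log2 ratio of 1.72 (1.52 to 1.94) and 1.29 (1.18 to 1.40). Tuba1b, an alpha tubulin, stood at 1415 and 1346 CPM against 504 and 608, and Tuba1c at 543 and 619.8 against 172 and 163. Tubb4b, which the study names for these libraries, stood at 537 and 599 CPM against 187 and 204, a log2 ratio of 1.53 (1.24 to 1.82) and 1.55 (1.39 to 1.73). Stmn1, which takes microtubules apart, stood at 297 and 483 CPM against 206 and 309.7, less than 2-fold. Tacc3, which stabilizes spindle fibers, had the highest ratio in the Pdcd1fl/fl library, at 60.1 against 9.57 CPM, and Nusap1, which bundles microtubules, the lowest, at 71.4 against 55.8.

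Chromatin proteins of dividing cells moved less. Of 25 listed, 7 of 15 and 6 of 19 tested were at least 2-fold higher, with medians of 0.64 and 0.60 above that of all genes. Hmgb2, a DNA-bending protein abundant in cycling lymphocytes, stood at 1468 and 1707 CPM against 665 and 816, a log2 ratio of 1.14 (0.99 to 1.30) and 1.06 (0.98 to 1.15). H2az1, a histone variant, stood at 1451 and 1525 CPM against 982 and 984, a log2 ratio of 0.56 (0.43 to 0.69) and 0.63 (0.55 to 0.71). H2ax, the histone that marks broken DNA, stood at 311 and 299.5 CPM against 100.5 and 116. Hmgb1 and Hmgn2, further chromatin proteins, were higher by less than 2-fold, with log2 ratios of 0.85 and 0.59, and of 0.63 and 0.88. Smc4, a condensin subunit, had the lowest ratio of the Pdcd1fl/fl list, at 0.43 (−0.27 to 1.19).

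Centromere and checkpoint genes had fewer UMIs than the spindle and chromatin lists. Of 23 kinetochore genes, 1 of 6 and 2 of 10 tested were at least 2-fold higher, against 6.16% and 3.29% of all genes. Their medians were 0.69 and 0.74. Cenpa, the histone of centromeres, stood at 440.4 and 508 CPM against 231 and 209.6, and Spc24, a kinetochore subunit that the study names, at 145 and 194 against 78.2 and 101. Ska1, which couples kinetochores to microtubules, had the highest ratio of the list in both libraries, at 33.4 and 39.7 against 4.78 and 15.7 CPM. Of 16 genes of the spindle checkpoint and the anaphase-promoting complex, 2 of 8 and 5 of 12 were at least 2-fold higher, with medians of 0.63 and 0.68. Cdc20, which switches that complex on, stood at 70.7 and 43.7 CPM against 4.78 and 16.3, a log2 ratio of 3.89 (2.30 to 6.19) and 1.42 (0.82 to 2.07), with 64.3% of the UMIs of Pdcd1 cKO other CD8 cells in 1 cell. Pttg1 (securin, which holds sister chromatids together) stood at 83.4 and 103 CPM against 104 and 102 and did not move with the list.

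Replication genes parted from the mitotic ones. Of 49 listed, 3 of 27 tested in the Pdcd1fl/fl library and 1 of 38 in the Pdcd1 cKO library were at least 2-fold higher. Of all genes 6.16% and 3.29% were. The list medians were 0.29 and 0.02 above that of all genes. The list summed to 2162 and 1995 CPM in cycling cells and 1541 and 1852 CPM in other CD8 cells. Pcna, the sliding clamp of the replication fork, stood at 318 and 259.9 CPM against 260.0 and 277, a log2 ratio of 0.29 (0.03 to 0.56) and −0.09 (−0.26 to 0.08). Mcm7, a subunit of the replicative helicase, had the highest ratio of the list in the Pdcd1fl/fl library, at 58.7 and 48.8 CPM against 25.5 and 51.8, a log2 ratio of 1.20 (0.42 to 2.07) and −0.09 (−0.48 to 0.32). Rpa2 and Rpa3, which coat single-stranded DNA, had log2 ratios of 0.61 (0.12 to 1.13) and 1.13 (0.57 to 1.72) in the Pdcd1fl/fl library and of −0.01 (−0.22 to 0.20) and 0.32 (−0.01 to 0.66) in the Pdcd1 cKO library. The other CD8 cells of the Pdcd1 cKO library thus held about as much replication RNA as the members.

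Nucleotide supply followed the same pattern. Of 19 genes, 4 of 14 and 0 of 15 tested were at least 2-fold higher, with medians of 0.36 and 0.13. Rrm2, the S phase subunit of ribonucleotide reductase, stood at 85.4 and 66.6 CPM against 20.7 and 51.2, a log2 ratio of 2.04 (1.22 to 2.99) and 0.38 (0.00 to 0.76). Tyms, which makes thymidylate, stood at 145 and 122 CPM against 86.1 and 107, and Tk1, which salvages thymidine, at 89.4 and 114 against 43.1 and 97.8. Dut, which removes dUTP, stood at 392 and 357 CPM against 273 and 375. Of 24 repair genes only 2 and 6 had 50 UMIs, of which 1 and 0 were at least 2-fold higher.

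Few genes that act before S phase could be tested. Of 17 genes of G1 control, 0 of 5 and 0 of 8 tested were at least 2-fold higher, against 6.16% and 3.29% of all genes, with medians of −0.13 and −0.19. Cdk4, the kinase of the D cyclins, stood at 233 and 207 CPM against 196 and 194, and Ccnd2 and Ccnd3, D cyclins of lymphocytes, at 49.4 and 31.7 and at 42.7 and 33.8 CPM against 47.8 and 33.8 and 41.5 and 51.2. Tfdp1, the partner of E2F factors, stood at 50.7 and 30.6 CPM against 25.5 and 32.6. Of 20 genes of CDK inhibition and resting T cells, 1 of 6 and 0 of 11 were at least 2-fold higher and none at least 2-fold lower. The one was Foxp1, a factor of resting lymphocytes, with a log2 ratio of 1.45 (0.53 to 2.52) in the Pdcd1fl/fl library and 33.3% of its UMIs in 1 cell, which turned to −0.57 at a threshold of 10 rule UMIs.

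**Figure D2:**
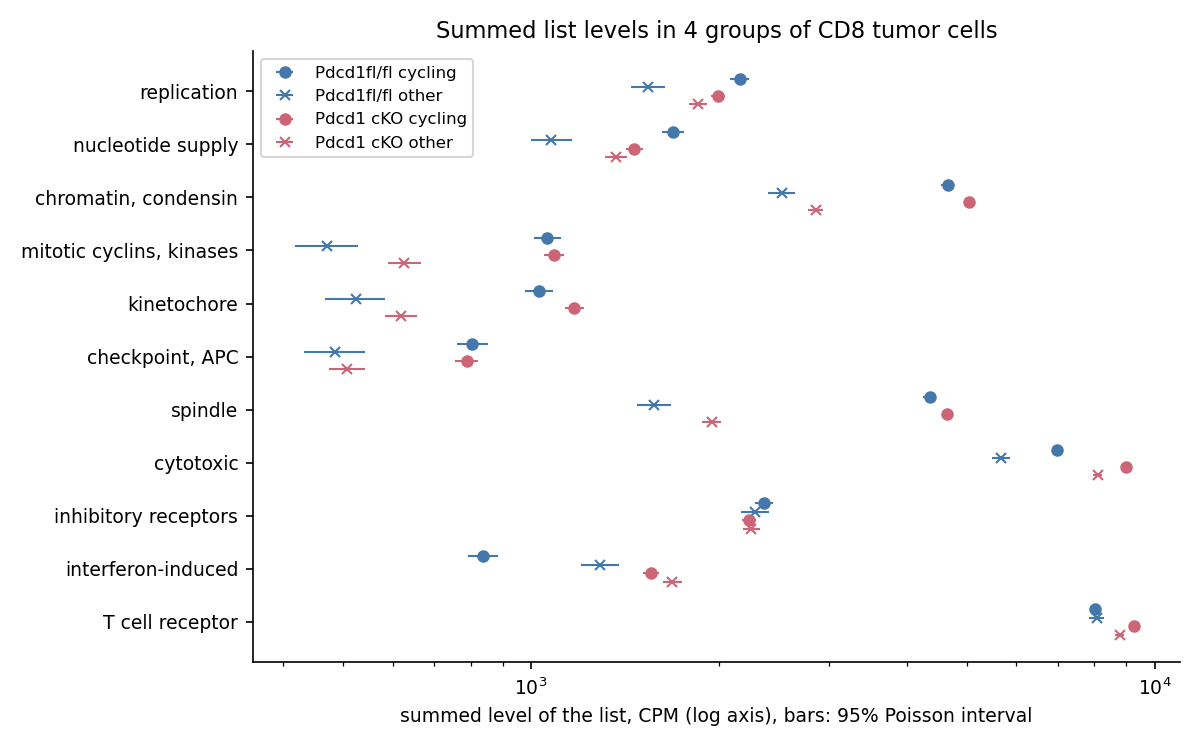
Summed level of 11 gene lists (CPM, logarithmic axis) in cycling and other CD8 cells of each tumor library, with 95% Poisson intervals as bars. The mitotic lists sit higher in cycling cells of both libraries (spindle 4356 and 4649 against 1576 and 1948 CPM), while replication lies apart mainly in the Pdcd1fl/fl library.

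The cycling cells were ranked by their S and G2/M UMIs. Each cell's UMIs of the 33 S genes and of the 39 G2/M genes were divided by the sums of those lists over all cycling cells, and the larger share named the cell. More S was found in 46 of 88 Pdcd1fl/fl cells (52.3%, 41.4% to 63.0%) and in 86 of 210 Pdcd1 cKO cells (41.0%, 34.2% to 47.9%). Compared as raw sums, the shares were 48.9% and 39.0%. The Pdcd1fl/fl share was thus the higher one both ways, with overlapping intervals. Within 2-fold of equal shares lay 47 (53.4%) and 107 (51.0%) of the cells, so the names mark ends of a range. Dividing by the sums sets the split near to even and gives each cell 1 of the 2 names, and the S list stood at 1636 and 1399.8 CPM in cycling cells against 1065 and 1333 in other CD8 cells, so a cell with more S is not shown to be in S phase. Every cycling cell held UMIs of both lists, with medians of 25.5 and 13 for S and 21 and 17 for G2/M. Depth differed little between the ends, with medians of 14642.5 and 11558.5 UMIs in cells with more S and 16111 and 11192 in cells with more G2/M. The part of free RNA from dividing melanoma cells in these names was not tested.

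The genes of the rule fell on both sides of this range. Ube2c stood at 191 and 623 CPM in Pdcd1fl/fl cells with more S and more G2/M, and at 232 and 619 CPM in the Pdcd1 cKO cells, a log2 ratio of 1.71 (1.43 to 1.99) and 1.42 (1.22 to 1.62). Top2a ran the other way, at 75.8 and 24.2 and at 41.5 and 26.4 CPM, and so did Mki67, at 52.0 and 22.9 and at 29.4 and 15.7 CPM. Birc5 was nearer to even, with log2 ratios of 0.45 (0.16 to 0.74) and 0.37 (0.18 to 0.56). Tubb4b rose toward G2/M, with log2 ratios of 0.58 (0.37 to 0.79) and 0.77 (0.61 to 0.92), while Gzmb, for granzyme B, stayed nearly level at 0.03 (−0.10 to 0.16) and −0.08 (−0.16 to −0.01). Pdcd1 stood at 233 and 233 CPM in the Pdcd1fl/fl cells and at 161 and 212 in the Pdcd1 cKO cells.

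**Figure D3:**
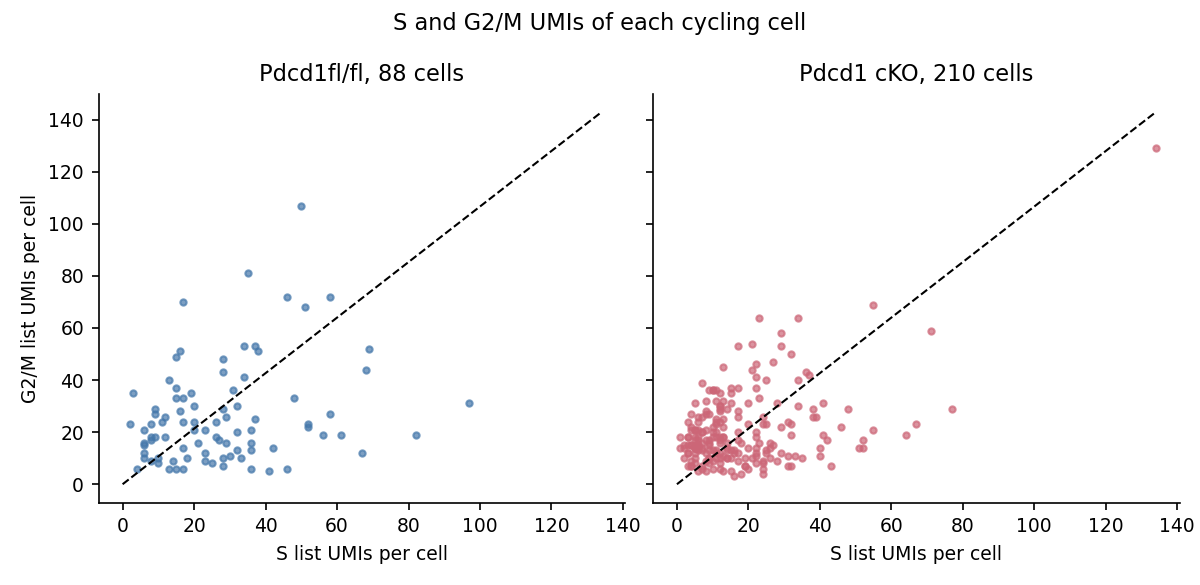
UMIs of 33 S genes (horizontal axis) and of 39 G2/M genes (vertical axis) in each cycling cell of the 2 tumor libraries, with a dashed line where the shares of both lists are equal. The points form 1 cloud around the line, with 52.3% of Pdcd1fl/fl and 41.0% of Pdcd1 cKO cells on the S side.

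No tested gene of cytotoxic granules was past 2-fold between cycling and other CD8 cells in either library. Of 19 listed, 0 of 15 and 0 of 17 tested were at least 2-fold higher, against 6.16% and 3.29% of all genes. The medians were 0.46 and −0.02 relative to all genes. Members of the Pdcd1 cKO library went both ways, from a log2 ratio of −0.89 for Gzme to 0.66 for Gzma. Gzmb stood at 1263 and 1896 CPM in cycling cells and at 705 and 1648 in other CD8 cells, a log2 ratio of 0.84 (0.69 to 0.99) and 0.20 (0.14 to 0.27). Prf1, for the pore protein perforin, stood at 88.8 and 85.9 CPM against 44.7 and 100.1, a log2 ratio of 0.99 (0.39 to 1.63) and −0.22 (−0.51 to 0.07). Nkg7, a granule membrane protein, stood at 1732 and 2888 CPM against 1652 and 2741 and differed little with the cell cycle. Coro1a, an actin regulator of the synapse, stood at 2029 and 2496 CPM against 1627 and 1898.

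Cytokine genes had at most 1 call in each direction. Of 18 cytokine genes, 10 were tested in each library, of which 1 and 0 were at least 2-fold higher and 0 and 1 at least 2-fold lower, against 6.16% and 3.29% and 0.913% and 2.68% of all genes, with medians of −0.26 and −0.43. Xcl1, which attracts cross-presenting dendritic cells, stood at 267 and 48.0 CPM in cycling cells and 519.9 and 71.6 in other CD8 cells, a log2 ratio of −0.96 (−1.18 to −0.75) and −0.58 (−0.94 to −0.21). Ccl5, a chemokine of effector cells, stood at 740.1 and 1971 CPM against 807 and 2611, a log2 ratio of −0.12 (−0.28 to 0.03) and −0.41 (−0.46 to −0.35). Il10, an anti-inflammatory cytokine, had the highest ratio of the list in both libraries, at 85.4 and 72.8 CPM against 39.9 and 55.9.

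Inhibitory receptors and exhaustion genes, Pdcd1 among them, had at most 1 call. Of 23 listed, 0 of 14 and 1 of 18 tested were at least 2-fold higher, against 6.16% and 3.29% of all genes, with medians of 0.00 and −0.05. Ctla4, a receptor that competes for costimulation, stood at 559.9 and 676 CPM against 694 and 699, and Lag3, a receptor for MHC class II, at 135 and 144 against 147 and 155. Tox, a factor of exhausted cells, stood at 46.7 and 43.7 CPM against 33.5 and 51.2. Of 18 naive and memory genes only 2 and 3 had 50 UMIs. Tcf7, the factor of stem-like T cells, had 5 and 15 UMIs in all cycling cells, 3.34 and 5.46 CPM, against 19.1 and 4.66 CPM in other CD8 cells, and Ccr7 was limited by the rule. Of 21 effector factors and markers, 0 of 11 and 0 of 12 were at least 2-fold higher or lower, with Id2, a factor that keeps effector fate, at 383 and 397 against 325 and 395 CPM.

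None of the tested glycolytic genes was past 2-fold in either library. In the Pdcd1fl/fl library 14 of 14 tested of 20 lay above 0 by total UMIs, against 2087 of 3066 of all genes, with a median of 0.26 above that of all genes. Under the other scalings 13 did, where Gpi1 fell to −0.02 and −0.01. The median of the Pdcd1 cKO library was −0.03. Ldha, which makes lactate, stood at 1768 and 1563 CPM against 1203 and 1423, a log2 ratio of 0.56 (0.44 to 0.67) and 0.14 (0.06 to 0.21). Tpi1, a triose isomerase, stood at 723 and 551 CPM against 453 and 591. Of 23 growth and cytokine receptor genes, 0 of 14 and 0 of 20 were at least 2-fold higher, against 6.16% and 3.29% of all genes. Their medians were 0.00 and 0.12.

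No tested interferon-induced gene was past 2-fold between cycling and other CD8 cells. Of 26 listed and 25 in the files, 6 were tested in the Pdcd1fl/fl library, with 0 above 0, against 2087 of 3066 of all genes, and a median of −0.82 relative to all genes. In the Pdcd1 cKO library 8 of 14 were above 0, against 2892 of 5046 of all genes, with a median of 0.00. Ifi27l2a, an interferon-induced membrane protein, stood at 329 and 710.1 CPM against 592 and 826, a log2 ratio of −0.85 (−1.04 to −0.65) and −0.22 (−0.32 to −0.12). Lists of p53 targets (0 of 4 and 0 of 4 tested), stress genes (0 of 12 and 0 of 12) and the Bcl2 family (0 of 8 and 0 of 9) held no gene at least 2-fold higher. Of all genes 6.16% and 3.29% were, so few calls were to be had in lists this short.

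Ranked over all genes found in at least 10% of cells, the highest ratios of cycling over other CD8 cells mixed cell cycle genes with genes of single cells. In the Pdcd1fl/fl library Ube2c, Cdc20, Ccna2, Cdc25b, Ccnb1 and Cdk1 were among the 10 highest. The remaining 4 were Snx25, Xrn1, Sparc and Nedd4l, of whose cycling UMIs 85.7%, 85%, 93.5% and 67.9% lay in 1 cell. In the Pdcd1 cKO library Ube2c, Birc5, Ccna2, Cdc25b, Top2a and Cdkn3, a phosphatase that acts on cyclin-dependent kinases, stood beside Diaph3, Lrrk1, Lpin1 and Ptprt, with 1 cell holding 85.5%, 59.6% and 57.9% of the UMIs of the first 3 of these. Kpna2, which imports nuclear proteins, and Cdca3, a trigger of mitotic entry, lay outside the lists and were chosen after their values were seen, with log2 ratios of 2.22 and 1.87, and of 1.68 and 1.71.

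The lowest ratios were mostly those of single other CD8 cells. In the Pdcd1fl/fl library Il1rapl2, Dnajc11, Ccdc6, Sergef, Usp25 and Pon2 had 81.5%, 83.8%, 81.1%, 74.3%, 59.1% and 62.2% of the UMIs of other CD8 cells in 1 cell. Gna13, a G protein subunit that signals to RhoA, was spread more evenly and stood at 137 and 54.1 CPM in other and cycling cells, a log2 ratio of −1.34 (−1.80 to −0.89). Dapl1, a gene of memory T cells, stood at 95.7 and 37.4 CPM, an order that turned against the 15 other CD8 cells between the depth quartiles of the cycling cells, and Rgs10 and Rab10os completed the list. In the Pdcd1 cKO library Osbpl10, Mtmr3, Cul1, Bcl7c, Xaf1, Brip1, Unc13d and Itfg1 had from 53.3% to 92.7% of the UMIs of other CD8 cells in 1 cell, beside Nrxn3 and Snhg4.

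Between libraries, the cycling cells were compared on values the rule did not use, save for its own genes and those of its limits, which include CD8, Ccr7, melanoma and macrophage genes. Among genes with at least 50 UMIs, 211 of 4916 (4.29%) were at least 2-fold higher in Pdcd1 cKO cycling cells and 157 (3.19%) at least 2-fold lower, around a median log2 of −0.02. One cell held over 50% of the UMIs for 52 of the 211 and 40 of the 157, and with each gene's highest cell left out 137 were higher and 92 lower. Without the stromal barcode 135 were lower. Other scalings gave 189 and 178, and 241 and 131.

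Few cell cycle genes were past 2-fold between the libraries, where 4.29% of all genes were higher and 3.19% lower. None of the 6 genes of the rule was past 2-fold. Birc5 was higher in Pdcd1 cKO cycling cells, by 0.43 (0.27 to 0.60), and Mki67 lower, at −0.77 (−1.33 to −0.22). The cells were chosen by raw UMIs of the 6 genes, at cycling medians of 14862.5 and 11298 UMIs per cell. The ratios of these genes between libraries are therefore a description only. Of the mitotic kinase list 1 of 12 was at least 2-fold higher, which was Pkmyt1, the kinase that holds Cdk1 inactive, at 1.07 (0.43 to 1.75). Of spindle genes 0 of 19, of chromatin genes 0 of 20, of checkpoint genes 0 of 13 and of replication genes 0 of 36 were past 2-fold either way, and the medians of these lists lay between −0.12 and 0.11 of that of all genes. Kinetochore genes had 1 of 11 at least 2-fold higher, and their median was 0.26. Spc24 was higher by 0.42 (0.19 to 0.65) and Stmn1 by 0.70 (0.55 to 0.86). G1 genes were below 0 in 7 of 7 tested under all 3 scalings, with none past 2-fold and a median of −0.40, while 2368 of 4916 of all genes lay above 0 by total UMIs. Of the nucleotide genes 2 of 17 were at least 2-fold lower, with a median of −0.24.

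T cell receptor genes of the cycling cells showed a shift between the beta chains. Trbc1, the first of the 2 constant segments, stood at 1263 and 669 CPM in Pdcd1fl/fl and Pdcd1 cKO cycling cells, a log2 ratio of −0.92 (−1.01 to −0.82), and at 1134 and 656 in other CD8 cells. Trbc2, the second one, stood at 1475 and 2083 CPM, a log2 ratio of 0.50 (0.43 to 0.57). In other CD8 cells it was nearly level, at 1864 and 1929 CPM. Each T cell builds its receptor with 1 of the segments, and how the clones of the pools differed was not tested. Of 19 receptor complex and coreceptor genes, 0 were at least 2-fold higher and 1 at least 2-fold lower, against 4.29% and 3.19% of all genes. That gene was Cd6, an adhesion receptor that dampens the signal, at 53.4 and 25.5 CPM and −1.07 (−1.55 to −0.59). Cd5, with a like role, stood at 45.4 and 24.0 CPM.

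Granule genes went both ways. Of 16 tested, 3 were at least 2-fold higher in Pdcd1 cKO cycling cells and 3 at least 2-fold lower, against 4.29% and 3.19% of all genes, with a median of 0.05 relative to all genes. Gzmb stood at 1263 CPM in the Pdcd1fl/fl and 1896 in the Pdcd1 cKO library, a log2 ratio of 0.59 (0.51 to 0.66). The difference was 1.23 (1.08 to 1.37) in other CD8 cells, where the Pdcd1fl/fl level was the lowest of the 4 groups. Gzmb was found in 87.5% and 92.4% of cycling cells, and in 0% and 33.3% of melanoma barcodes, so Gzmb RNA in barcodes without CD8 was more widespread in the Pdcd1 cKO library.

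Nkg7 was higher by 0.74 (0.67 to 0.80), at 1732 and 2888 CPM, in cycling cells and by 0.73 (0.63 to 0.83) in other CD8 cells. Its shares in melanoma barcodes were 10.7% and 47.6%. Gzma, a granzyme of a different cleavage specificity, stood at 36.7 and 139.8 CPM, a log2 ratio of 1.93 (1.52 to 2.36), and was found in 10.2% and 28.6% of cycling cells and 1.33% and 4.76% of melanoma barcodes. Gzmk, a granzyme of memory-like effectors, stood at 31.4 and 99.4 CPM, a log2 ratio of 1.66 (1.21 to 2.14). Prf1 did not differ detectably in cycling cells, with a log2 ratio of −0.05 (−0.36 to 0.27), and was higher by 1.16 (0.58 to 1.80) in other CD8 cells. Coro1a was higher by 0.30 (0.24 to 0.36).

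Gzmc had the lowest ratio of the granule genes. This granzyme of strongly stimulated killer cells stood at 354 and 59.7 CPM in Pdcd1fl/fl and Pdcd1 cKO cycling cells, a log2 ratio of −2.57 (−2.83 to −2.31), and of −1.40 (−1.76 to −1.04) in other CD8 cells. It was found in 27.3% and 8.57% of cycling cells and in 4% and 4.76% of melanoma barcodes, with 26.8% and 29.3% of its UMIs in 1 cell. Gzme, its neighbor in the granzyme cluster, stood at 41 and 16 CPM, a log2 ratio of −1.35 (−1.94 to −0.76) that turned to 0.39 among cells with more G2/M. Serpinb9, which shields the cell from its own granzyme B, stood at 165 and 76.8 CPM, a log2 ratio of −1.11 (−1.38 to −0.84). These were the 3 genes past 2-fold lower.

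Among 10 tested cytokine genes, 1 was at least 2-fold higher and 1 at least 2-fold lower, against 4.29% and 3.19% of all genes. Ccl5 stood at 740.1 and 1971 CPM, a log2 ratio of 1.41 (1.32 to 1.51), and of 1.69 (1.56 to 1.83) in other CD8 cells. It was found in 85.2% and 96.7% of cycling cells, but also in 29.3% and 85.7% of melanoma barcodes, so Ccl5 RNA was also widespread outside CD8 cells in the Pdcd1 cKO library. Xcl1 was the reverse, at 267 and 48.0 CPM, a log2 ratio of −2.47 (−2.77 to −2.19), found in 42.0% and 12.9% of cycling cells and 4% and 4.76% of melanoma barcodes. In other CD8 cells its ratio was −2.86 (−3.17 to −2.56).

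**Figure D4:**
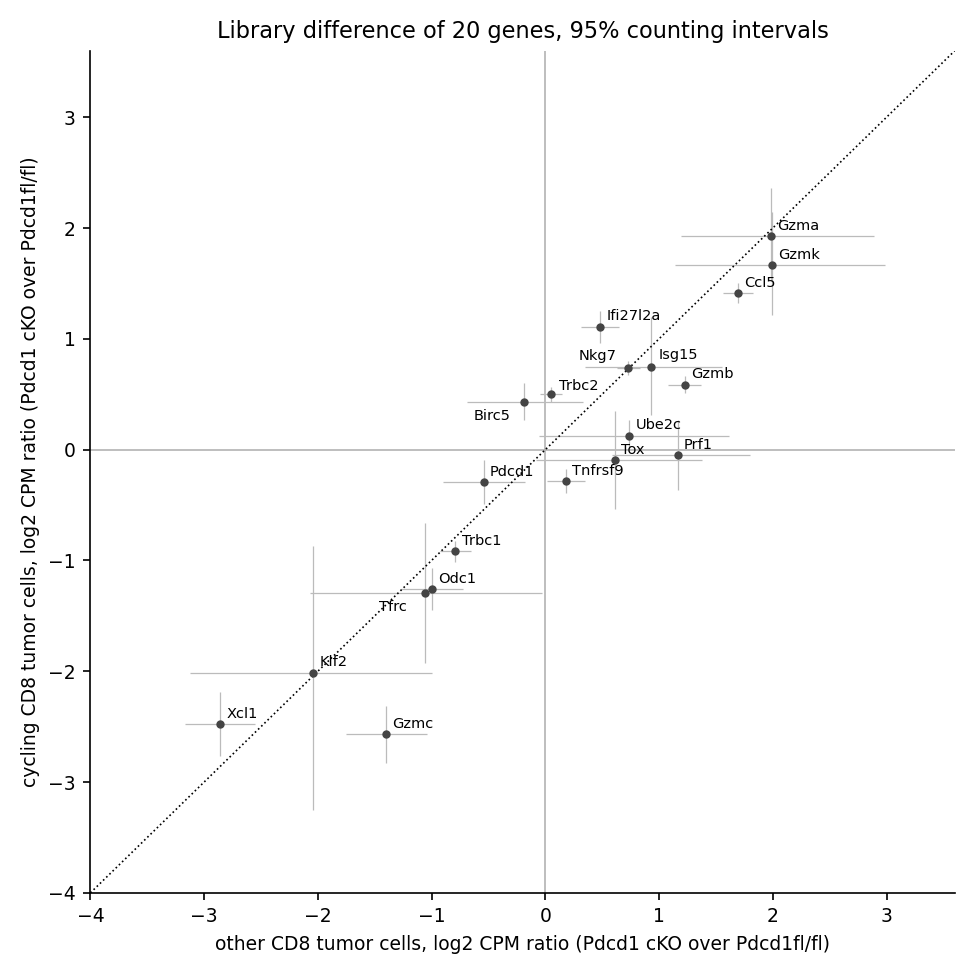
Log2 ratio of Pdcd1 cKO over Pdcd1fl/fl in other CD8 cells (horizontal axis) and in cycling cells (vertical axis) for 20 genes, chosen after their values were seen. Xcl1 and Gzmc lie lowest among cycling cells, at −2.47 and −2.57, and Gzma and Ccl5 among the highest, at 1.93 and 1.41.

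The tested interferon-induced genes were all above 0 in Pdcd1 cKO over Pdcd1fl/fl cycling cells. Of 26 listed, 14 were tested, of which 14 lay above 0 under all 3 scalings. By total UMIs 2368 of 4916 of all genes did. At least 2-fold higher were 5 of the 14, against 4.29% of all genes. The list median was 0.75 above that of all genes. Among markers of other cells the medians of the same comparison were 0.88 for 4 tested dendritic cell genes (of which H2-Aa turned to −0.54 without the limit on Ccr7), 0.96 for 2 B cell genes, 0.36 for 2 macrophage genes and −0.63 for 4 melanoma genes. Ifi27l2a stood at 329 and 710.1 CPM, a log2 ratio of 1.11 (0.97 to 1.26), and of 0.48 (0.32 to 0.65) in other CD8 cells. Zbp1, a sensor of unusual nucleic acids, stood at 46.7 and 120.1 CPM, a log2 ratio of 1.36 (0.99 to 1.76). Isg20, an exonuclease, had the highest ratio, at 5.34 and 27.7 CPM, and Igtp, a GTPase that acts on vacuoles of parasites, the lowest. Isg15, a ubiquitin-like protein, stood at 38.7 and 64.8 CPM, a log2 ratio of 0.74 (0.31 to 1.20). The difference was larger in cycling than in other CD8 cells for Ifi27l2a and for Bst2, an antiviral tether, at 0.51 (0.32 to 0.70) and −0.08 (−0.32 to 0.17). It was not for Isg15, which stood at 0.93 (0.35 to 1.55) in other CD8 cells.

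Some of these genes were also higher in barcodes that held no CD8 UMI at all. In the 112 and 49 such barcodes past the quality limits, with medians of 15850 and 8756 UMIs, Isg15 stood at 402 and 824 CPM, Zbp1 at 162 and 467 and Ifi27l2a at 239 and 576. Of these barcodes 75 and 21 were the melanoma barcodes, so the mix of cells differed between the libraries. T cell genes differed there too, with Nkg7 at 63.8 and 260 and Cd3d at 82.9 and 183 CPM. Isg15 was found in 18.2% and 24.3% of cycling cells and in a larger share, 57.3% and 81.0%, of melanoma barcodes. Melanoma cells can make interferon-induced RNA themselves, so these shares do not measure free RNA. In other CD8 cells 6 of 10 tested interferon genes lay above 0, against 2001 of 3179 of all genes. Their median was 0.39 above that of all genes. For Isg15, Zbp1 and Ifi27l2a the difference was thus present in barcodes with and without CD8 UMIs. The parts of free RNA and of the mix of cells in it were not tested.

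Exhaustion genes had 1 call in each direction. These were of 19 tested, against 4.29% of all genes at least 2-fold higher and 3.19% at least 2-fold lower, with a median of −0.24. Tox stood at 46.7 and 43.7 CPM, a log2 ratio of −0.10 (−0.53 to 0.35). Ctla4 was higher by 0.27 (0.15 to 0.39), and Tnfrsf9 (4-1BB, a costimulatory receptor of activated cells) stood at 765 and 628 CPM, a log2 ratio of −0.28 (−0.39 to −0.18). Cd244a, an inhibitory receptor shared with natural killer cells, was past 2-fold higher at 3.34 and 16.7 CPM, a log2 ratio of 2.33 (1.00 to 4.02), and Nr4a3, a factor induced by receptor signals, past 2-fold lower at 31.4 and 12.7 CPM, a log2 ratio of −1.30 (−1.97 to −0.64).

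The growth genes past 2-fold were all lower in Pdcd1 cKO cycling cells. Of 20 growth genes, 0 were at least 2-fold higher and 3 at least 2-fold lower, against 4.29% and 3.19% of all genes, with a median of −0.25. Odc1, which makes polyamines, stood at 356 and 149 CPM, a log2 ratio of −1.26 (−1.45 to −1.07), and at 314 and 157 CPM in other CD8 cells. Tfrc, the transferrin receptor, stood at 34.7 and 14.2 CPM, a log2 ratio of −1.29 (−1.93 to −0.66), and Tnfrsf4 (OX40, a costimulatory receptor) at 182 and 87.0 CPM, a log2 ratio of −1.07 (−1.32 to −0.81). In barcodes without CD8 UMIs Odc1 stood at 231 and 214 CPM. Of 14 stress genes 0 were at least 2-fold higher and 1 at least 2-fold lower, with a median of −0.32. Junb, an early gene of receptor signals, stood at 184 and 103 CPM and Hsp90ab1, a chaperone, at 1226 and 807.

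Genes of rest and of the Bcl2 family had 1 call each, where 4.29% of all genes were higher and 3.19% lower. Of 11 tested genes of CDK inhibition and rest, 1 was at least 2-fold higher, with a median of 0.36. That gene was Slfn2, needed for T cell quiescence, at 18.0 and 42.9 CPM. Klf2, a factor of resting and recirculating cells, stood at 14.7 and 3.64 CPM, a log2 ratio of −2.01 (−3.25 to −0.87), with under 50 UMIs. Of 8 Bcl2 family genes 1 was at least 2-fold lower, Bcl2l11, which starts cell death, at 32.7 and 14.6 CPM, and of 4 p53 targets none was past 2-fold. Glycolytic genes had 0 of 16 past 2-fold and a median of −0.14, and effector factors and markers 0 of 12 and 0.02. Of 3 tested naive and memory genes, Cxcr3, a chemokine receptor that guides T cells into tissue, was at least 2-fold higher at 6.67 and 25.5 CPM and Tafa2, described below, at least 2-fold lower, with a median of −0.28.

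The genes that differed most between the libraries were not particular to the cycling cells, and whether mice or library preparation contributed was not tested. The 10 highest included Ecpas, a proteasome adaptor, at 7.34 and 208 CPM, and Bmpr1a, a BMP receptor, at 2.00 and 87.0 CPM, with log2 ratios of 4.83 (3.98 to 5.84) and 5.44 (3.88 to 7.73). Olfr3, an odorant receptor gene, was at 0 against 89 UMIs, at least 16.2-fold higher against a floor of 3 counts. Mctp2, Atp8b5, Cbfa2t2, Gdpd4, Ankrd50, Ifitm1 and Eml1 completed them. All 10 were at least 2-fold higher in other CD8 cells too, and 9 of 10 in barcodes without CD8 UMIs, where Ecpas stood at 17.7 and 199 CPM. The predicted gene Gm47854, chosen after its values were seen, had 1030 UMIs in 93.3% of Pdcd1 cKO cycling cells before reduction and 0 in the Pdcd1fl/fl ones, and 0 and 369 CPM in barcodes without CD8 UMIs.

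Of the 10 lowest, 7 were at least 2-fold lower in other CD8 cells and 5 in barcodes without CD8 UMIs, or 4 with 0.5 counts added, where Gzmc fell short. Vwc2l, a secreted protein, stood at 69.4 and 1.09 CPM, Mipep, a mitochondrial peptidase, at 107 and 2.91, and Tafa2, a secreted protein that the study names, at 135 and 6.55 CPM, a log2 ratio of −4.37 (−5.15 to −3.67). In barcodes without CD8 UMIs these stood at 96.2 and 0, at 151 and 7.07 and at 145 and 3.54 CPM. Xcl1 and Gzmc were also among the 10, and in those barcodes they stood at only 23.2 and 40.1 and 14.7 and 7.07 CPM. Enpp2 and Fhod3 stood at 30.7 and 2.91 and at 73.4 and 11.6 CPM, and Sparc, Snx25 and Nedd4l rested on single Pdcd1fl/fl cells.

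Differences between libraries were similar at both ends of the cycle for Ccl5, Nkg7 and Gzmb. Ccl5 had a log2 ratio of 1.41 in cells with more S and 1.39 in cells with more G2/M, Nkg7 of 0.71 and 0.74, and Gzmb of 0.65 and 0.54. Xcl1 stood at −2.05 and −2.81 and Gzmc at −3.00 and −2.22. Gzma was higher by 2.94 and 1.33, and Ifi27l2a by 0.60 and 1.34, while Gzme changed its direction as given above.

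Dividing CD8 cells of the baseline thymus libraries were chosen by the same limits on quality and CD8 UMIs and the same 5 cell cycle UMIs, but without the limits on Ccr7, melanoma and macrophage UMIs. There 82 of 228 Pdcd1fl/fl (36.0%) and 105 of 1106 Pdcd1 cKO cells (9.49%) were cycling, and in the spleen 2 of 177 and 7 of 1538. Thymic cycling cells held 226 and 184 CPM of Mki67 and 510.4 and 477 of Top2a, against 36.7 and 21.5 and 48.7 and 32.8 in the tumor. Their replication list stood at 5439 and 5504 CPM, against 2162 and 1995. Tumor cycling cells were thus poor in these transcripts beside thymic ones. They were rich in Gzmb, at 1263 and 1896 against 2.19 and 3.42 CPM, and in Pdcd1, at 233 and 190.4 against 1.09 and 3.42. Gzma went the other way, at 36.7 and 139.8 CPM in tumor against 600 and 456 CPM in thymic cycling cells. Rag1, which cuts receptor genes in thymocytes, was at 0 UMIs in the tumor cells and at 37.2 and 28.4 CPM in the thymus. Id2 stood at 383 and 397 against 44.8 and 55.3 CPM, while Ccnd3 and Cdk6, which drive thymocyte division, stood at 42.7 and 33.8 and at 24.0 and 22.6 against 219.7 and 168 and 212 and 198 CPM.

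The promoters of the cell cycle lists held motifs that the rule did not use. RefSeq promoter sequences of GRCm38.p6, from 250 bases before to 50 after the start, were searched on both strands. The cell cycle homology region (TTTGAA or TTCGAA), which MuvB binds, was found in 58 of 89 promoters (65.2%) of the 4 mitotic lists with 96 genes, of which 80 matched, and in 19.2% of all 32851 promoters. The CCAAT box (CCAAT), bound by NF-Y, was found in 68.5% against 37.4%, and both motifs in 50.6% against 7.52%. E2F motifs (TTTCCCGC, TTTGGCGC or TTTCGCGC) were found in 17 of 47 promoters (36.2%) of replication genes, and in 5.62% of the mitotic ones and 1.84% of all. They were found in 0 of 19 promoters of nucleotide genes and in 8 of 19 of G1 control genes. Among interferon genes, 2 copies of GAAA with 2 bases between them, the core of the interferon response element, were found in 13 of 25 promoters (52.0%), against 3.44% of all. A match describes letters in a window and is not a bound site.

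The following sequences are promoters of genes that had high ratios in cycling cells, with cell cycle homology regions and CCAAT boxes in capitals. Ube2c at chr2:164769679-164769978 on the plus strand held 1 and 6 of them, Cdc20 at chr4:118437294-118437593 on the minus strand 1 and 2, and Cdc25b at chr2:131186698-131186997 on the plus strand 1 and 1. The promoter of Birc5 held neither motif.
Ube2c: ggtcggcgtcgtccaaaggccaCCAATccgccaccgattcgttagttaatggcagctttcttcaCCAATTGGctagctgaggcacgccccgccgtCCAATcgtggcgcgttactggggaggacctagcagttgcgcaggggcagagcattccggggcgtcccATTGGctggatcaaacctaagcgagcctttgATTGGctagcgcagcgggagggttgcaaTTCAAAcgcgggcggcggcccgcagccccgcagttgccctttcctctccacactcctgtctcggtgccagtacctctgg
Cdc20: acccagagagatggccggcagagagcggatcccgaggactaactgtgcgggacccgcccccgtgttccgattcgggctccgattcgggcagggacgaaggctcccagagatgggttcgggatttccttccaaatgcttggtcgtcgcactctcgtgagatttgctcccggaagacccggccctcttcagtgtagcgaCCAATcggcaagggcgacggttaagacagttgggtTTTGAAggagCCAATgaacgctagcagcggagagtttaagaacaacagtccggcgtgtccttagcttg
Cdc25b: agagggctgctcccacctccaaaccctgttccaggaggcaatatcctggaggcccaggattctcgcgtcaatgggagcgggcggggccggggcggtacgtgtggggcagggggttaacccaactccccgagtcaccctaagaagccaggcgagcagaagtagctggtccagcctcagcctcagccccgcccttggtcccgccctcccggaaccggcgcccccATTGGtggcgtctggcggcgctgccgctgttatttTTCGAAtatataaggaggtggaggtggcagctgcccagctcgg

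A replication gene and an interferon gene are shown as well. One of the 2 Mcm7 promoters, at chr5:138171834-138172133 on the minus strand, has its 2 E2F motifs in capitals. It also holds 1 cell cycle homology region and 3 CCAAT boxes, which are not marked. The first base of 1 of these boxes is in capitals because it lies in an E2F motif. The promoter of Isg15, at chr4:156200769-156201068 on the minus strand, has its 3 overlapping matches of the paired GAAA motif in capitals.
Mcm7: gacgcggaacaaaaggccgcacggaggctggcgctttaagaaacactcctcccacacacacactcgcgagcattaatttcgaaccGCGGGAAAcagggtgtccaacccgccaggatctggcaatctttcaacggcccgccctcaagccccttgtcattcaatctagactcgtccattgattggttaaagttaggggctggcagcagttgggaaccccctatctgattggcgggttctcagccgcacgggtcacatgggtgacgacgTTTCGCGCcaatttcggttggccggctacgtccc
Isg15: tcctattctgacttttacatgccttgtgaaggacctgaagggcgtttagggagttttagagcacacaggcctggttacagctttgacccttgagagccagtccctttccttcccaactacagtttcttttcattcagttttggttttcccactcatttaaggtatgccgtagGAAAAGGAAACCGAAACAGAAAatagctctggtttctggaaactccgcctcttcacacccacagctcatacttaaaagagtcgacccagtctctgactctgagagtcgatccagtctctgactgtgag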

How the data were processed

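The deposited files of each library hold UMI counts per gene and barcode, made by the authors with the PIPseq pipeline on GRCm39 (Seurat 4.3.0 per the submitters' notes). Feature files gave gene names, and gene positions came from the GENCODE mouse annotation. From the counts, CPM (UMIs per 1e6 of a group's summed UMIs), log2 CPM ratios with exact conditional binomial intervals, Poisson intervals of levels and Clopper-Pearson intervals of shares were computed (Python 3.11.15, numpy 2.4.6, scipy 1.17.1, pandas 2.3.3, matplotlib 3.10.9). Genes with at least 50 UMIs in both groups together were tested, called means past 2-fold, and 0.5 counts were added for calls, list medians and rankings only. No p-value was computed. Doublets were called with Scrublet in scanpy 1.11.5 and kept. The scripts were tested on simulated data.

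The members and the 37 gene lists (561 genes, 4 not among the 32227 in the files) were chosen with earlier results of these data known. Named genes were taken from Pdcd1, the rule's genes, genes the study names for these libraries, the 5 most abundant and the highest and lowest members of each list, further members for their role, and the 10 highest and 10 lowest of all genes, leaving out predicted ones. Not all of these are named, and some are not reported here. Alternatives covered thresholds, depth, scaling, single cells and limits on other cells.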

Additional observations from a re-analysis of the deposited data

Results flagged for a closer look

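Trbc2 was lower in cycling than in other CD8 cells of the Pdcd1fl/fl library (log2 −0.34, −0.44 to −0.23) and higher in the Pdcd1 cKO library (0.11, 0.05 to 0.17), a gap of 0.45 between the genotypes. Gzmc was higher with the cycle in the Pdcd1fl/fl library (0.75, 0.47 to 1.03) and lower in the Pdcd1 cKO library (−0.42, −0.75 to −0.08), a gap of −1.17. Tnfrsf9 was likewise higher in the first (0.29, 0.12 to 0.46) and lower in the second (−0.18, −0.28 to −0.07), a gap of −0.47. Cd244a, with only 5 and 8 UMIs in cycling and other CD8 cells of the Pdcd1fl/fl library, was lower in the first (−1.94, −3.89 to −0.14) and higher in the second (1.52, 0.52 to 2.68), a gap of 3.46. Each is listed because the 2 libraries moved in opposite directions with intervals clear of 0. With 1 library per genotype the difference was not tested.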

How the results depend on the processing

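No paired analysis was possible because each genotype had 1 tumor library of 3 pooled mice. Depth limits the share of cycling cells and the smaller lists, and of the values that answer a comparison 66 kept their range and 26 moved. For single genes and lists 8488 values did, 500 moved and 9 reversed. At a threshold of 3 UMIs the shares of cycling cells were 67.3% and 64.0%, and 312 genes were higher in Pdcd1fl/fl cycling cells. At a threshold of 10 the shares were 34.6% and 32.5%, with 96 and 91 genes higher in cycling cells and 140 higher in Pdcd1 cKO than in Pdcd1fl/fl cycling cells. There Mki67 (−0.073) and Foxp1 (−0.57) in the Pdcd1fl/fl library and Ckap5 (−0.13) in the Pdcd1 cKO library reversed between cycling and other CD8 cells, and the cause was not tested. With at least 20 UMIs per gene, which tests more genes, 641 and 470 were higher in cycling cells, and 588 higher and 516 lower between libraries. With at least 200 UMIs, which tests fewer, the counts were 21, 24, 23 and 17. Reducing cells to 3000 UMIs and the threshold to 2 gave 40.5% and 48.0%, in which the order of the libraries turned. Further alternatives, of depth, single cells and stroma, were chosen after seeing the data. Reducing cells to 5000 UMIs at the threshold of 5 gave 27.5% and 30.8%. Leaving out each gene's highest cell gave 104 genes higher in Pdcd1 cKO cycling than other cells, and 137 higher and 92 lower between libraries, and Col3a1 turned to −1.28 in the Pdcd1fl/fl library. Leaving out the stromal barcode turned Col1a2 to −0.018 and Col3a1 to −1.24 there. Cells with more S gave 100 genes higher and 75 lower between libraries and cells with more G2/M 135 and 85, where Gzme reversed to 0.39. Without the limit on Ccr7, H2-Aa reversed to −0.54 between libraries. Against the 15 Pdcd1fl/fl other CD8 cells between the depth quartiles of the cycling cells, Dapl1 reversed to 0.56. For these the cause was not tested.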
